A study of Homo sapiens with 4 samples.

Results

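Interferon-stimulated genes are the genes that cells switch on after interferons bind their receptors. A list of 40 of them, chosen by gene symbol, was described in 2 human gastric cancer cell lines, and all 40 were found among the 58336 genes of the deposited count table. AGS, from a gastric adenocarcinoma, has epithelial features, whereas HGC-27 is an undifferentiated carcinoma line of the stomach; both are labelled WT. Each line gave 1 library from cells kept for 1 day in 10 nM estradiol, an oestrogen, and 1 library from control cells, so that 4 libraries of total RNA were compared. No library was labelled as treated with an interferon or infected with a virus.

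Type I and type III interferons act through the kinases JAK1 and TYK2, which activate STAT2. STAT2 joins IRF9 in a complex that binds the interferon-stimulated response element, a DNA element with repeats of GAAA in the promoters of its target genes. The induced proteins sense, cleave or trap viral RNA, block viral entry and release, or feed back on the pathway, and epithelial cells of the digestive tract use them as a first defence. Some cancer cell lines are known to express them without added interferon.

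The libraries held 28062811 counts (AGS estradiol), 26306803 (AGS control), 24597379 (HGC-27 estradiol) and 28734374 (HGC-27 control), and a floor of 3 counts stood for 0.104 to 0.12 CPM, the count scaled to a common library size. Libraries of the same line correlated at 0.997 in log2 CPM across genes, and libraries of different lines at 0.777 to 0.781. Mitochondrially encoded genes took 7.82% to 7.94% of the counts. The labels do not say that the libraries of a line came from separate cultures, so p-values do not measure the spread between cultures. They rest mostly on a spread pooled over all genes, since the model left 1 residual degree of freedom. Summed over 6 epithelial markers, AGS held 5548 to 5899 CPM and HGC-27 66.8 to 71.2 CPM, while 4 mesenchymal markers summed to 5.002 to 5.57 CPM in AGS and 1516 to 1538 CPM in HGC-27. The part of these marker differences in the line differences below was not tested. Markers of endothelium (3 genes) summed to 0.231 to 0.362 CPM in AGS and 0.440 to 0.657 CPM in HGC-27, and CD3E, which defines T cells, had 0 counts in every library.

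Promoter sequences are shown here because the response element is the feature through which these genes are known to be induced together. RefSeq (GRCh38.p14) gave a promoter, taken as 250 bases before to 50 bases after the gene start, for 31 of the 40 genes. The motif GAAANNGAAA, searched on both strands, was present in 21 of these 31 genes (67.7%) and in 1195 of 27305 genes with a promoter (4.38%). The motif TTCNNNGAA, the core of the gamma-activated site, was present in 10 of the 31 (32.3%) and in 9.38% of all genes; the motifs can share bases at a GAA or TTC. A match describes the letters of the window, not a bound site. In the sequences below, capitals mark each match to GAAANNGAAA or its reverse complement. ISG15 and EPSTI1 stand for genes with a match that were higher in AGS, and IFIH1 for one with 3 matches. SAMD9 and SAMD9L are neighbours that differed between the lines in opposite directions, and IFI44L and HERC6 were the genes furthest below HGC-27 in AGS.
ISG15, chr1:1013247-1013546 (+ strand): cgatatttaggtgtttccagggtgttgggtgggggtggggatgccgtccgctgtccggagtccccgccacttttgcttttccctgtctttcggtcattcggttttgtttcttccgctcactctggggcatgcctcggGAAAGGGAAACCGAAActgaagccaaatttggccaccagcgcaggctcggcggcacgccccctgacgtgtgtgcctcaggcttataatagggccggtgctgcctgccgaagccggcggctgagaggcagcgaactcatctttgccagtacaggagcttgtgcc
EPSTI1, chr13:42992192-42992491 (- strand): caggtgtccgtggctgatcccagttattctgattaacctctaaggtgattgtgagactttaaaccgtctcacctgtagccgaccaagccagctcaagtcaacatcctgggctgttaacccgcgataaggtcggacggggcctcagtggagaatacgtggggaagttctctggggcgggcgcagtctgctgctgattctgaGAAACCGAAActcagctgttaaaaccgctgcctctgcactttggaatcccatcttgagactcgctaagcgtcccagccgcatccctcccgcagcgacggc
IFIH1, chr2:162318635-162318934 (- strand): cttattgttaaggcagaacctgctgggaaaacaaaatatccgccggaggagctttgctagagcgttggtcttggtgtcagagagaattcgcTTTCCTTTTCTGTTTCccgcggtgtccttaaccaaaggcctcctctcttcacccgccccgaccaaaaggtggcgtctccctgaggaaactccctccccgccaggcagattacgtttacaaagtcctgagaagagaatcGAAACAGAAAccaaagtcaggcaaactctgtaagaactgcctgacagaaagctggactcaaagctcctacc
SAMD9, chr7:93117930-93118229 (- strand): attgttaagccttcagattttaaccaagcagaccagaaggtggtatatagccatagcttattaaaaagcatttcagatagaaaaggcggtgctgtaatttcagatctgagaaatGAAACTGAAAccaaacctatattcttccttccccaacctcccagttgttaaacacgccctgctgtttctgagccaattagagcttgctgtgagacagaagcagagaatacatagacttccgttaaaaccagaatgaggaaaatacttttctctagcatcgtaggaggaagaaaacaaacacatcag
SAMD9L, chr7:93148336-93148635 (- strand): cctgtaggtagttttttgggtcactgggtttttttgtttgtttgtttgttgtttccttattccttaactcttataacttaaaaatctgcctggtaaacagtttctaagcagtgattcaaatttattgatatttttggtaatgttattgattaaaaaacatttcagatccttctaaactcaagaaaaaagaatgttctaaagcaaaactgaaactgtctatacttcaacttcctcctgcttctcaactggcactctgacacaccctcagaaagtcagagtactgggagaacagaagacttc
IFI44L, chr1:78620198-78620497 (+ strand): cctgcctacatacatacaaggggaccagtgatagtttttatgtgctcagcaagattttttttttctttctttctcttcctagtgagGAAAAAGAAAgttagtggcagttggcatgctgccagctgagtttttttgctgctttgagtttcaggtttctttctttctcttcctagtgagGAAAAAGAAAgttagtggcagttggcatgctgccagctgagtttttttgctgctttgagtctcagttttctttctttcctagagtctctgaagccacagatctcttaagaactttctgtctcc
HERC6, chr4:88378602-88378901 (+ strand): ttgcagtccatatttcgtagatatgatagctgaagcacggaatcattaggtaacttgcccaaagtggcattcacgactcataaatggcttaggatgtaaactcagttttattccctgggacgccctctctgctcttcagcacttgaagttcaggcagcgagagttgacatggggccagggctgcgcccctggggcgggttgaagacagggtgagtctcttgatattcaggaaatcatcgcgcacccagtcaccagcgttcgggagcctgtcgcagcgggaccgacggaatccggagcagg
The ISG15 window held 2 overlapping matches, with starts 113 and 107 bases before the gene start, and the EPSTI1 window 1 match 50 bases before it. Among genes with a promoter, 17 of 22 that were higher in AGS, 1 of 4 that were lower, 2 of 3 that passed no test and 1 of 2 that were too low to be tested held GAAANNGAAA. SAMD9 held 1 match and SAMD9L 0. The window of IFI44L, a gene lower in AGS, held 2 matches. The windows of DDX58, OAS1, STAT2, IRF1 and IRF9, genes higher in AGS, held none. MX2, OASL, OAS2 and TRIM22, which were among the genes furthest above HGC-27 in AGS, had no promoter to search. Whether the motif goes with the line difference was not tested.

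Most of the interferon-stimulated genes were higher in AGS than in HGC-27. Counts were high enough for a test in 38 of the 40 genes, and 29 of these were higher in AGS, 5 were lower and 4 passed no threshold (edgeR quasi-likelihood F-test with Benjamini-Hochberg adjustment over 18278 genes, threshold 0.05). The lines differ widely, so these counts stand against 77.2% of all tested genes called between the lines, 35.7% of all tested genes higher in AGS and 41.5% lower. The median log2 difference, AGS minus HGC-27, was 2.24 over the 38 genes and -0.10 over all tested genes. Setting the genes at 0 counts in HGC-27 to a bound from 3 counts per library also gave 2.24. That median could not change, because the bounds of these genes still lay above it. The 5 genes lower in AGS were HERC6, IFI44L, IFITM2, SAMD9L and IFI35, and the 4 that passed no threshold were MX1, USP18, CMPK2 and BST2. In RNA from whole cultures, fewer cells that express a gene and less RNA per cell cannot be told apart. Of the tested genes, 8 had a mean count under 10 in HGC-27 alone and 1 in AGS alone, so the filter on low counts let these in through the line in which they were high. Where the mean count reached 10 in each line, which left 29 tested genes, 21 were higher in AGS and 4 lower.

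**Figure D1:**
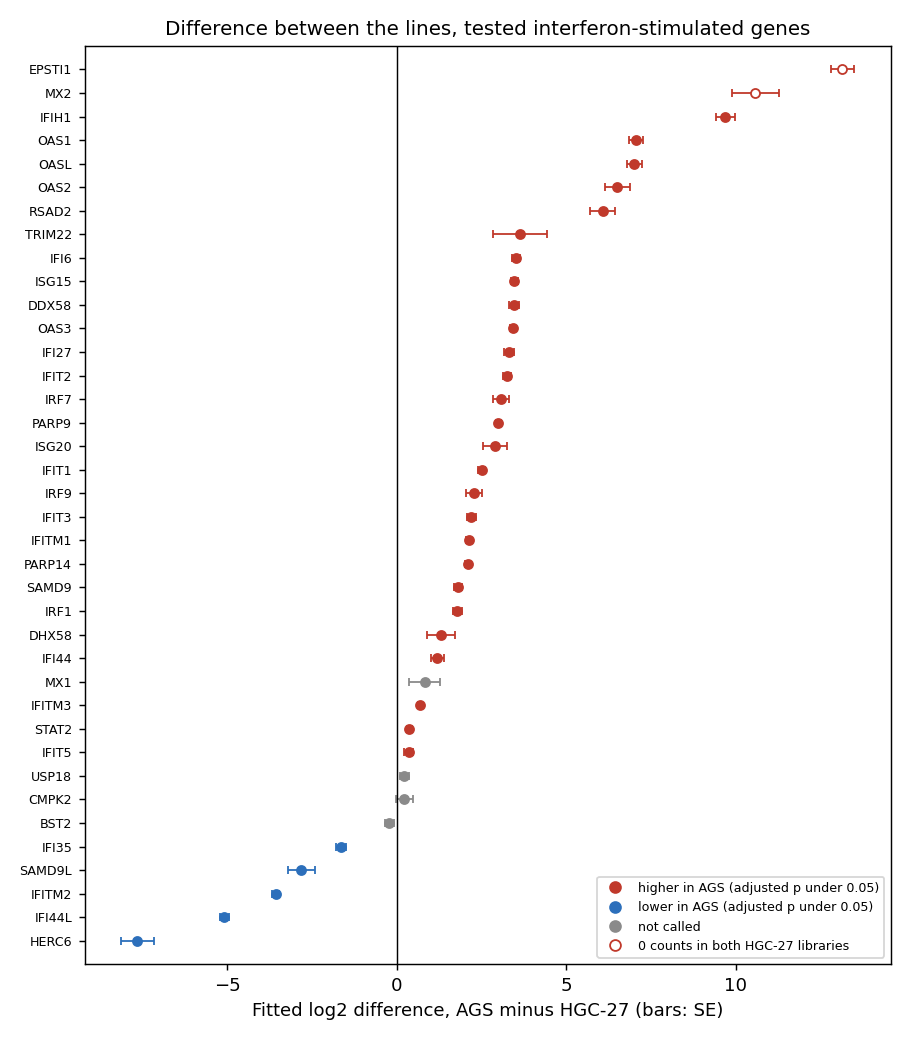
Fitted log2 difference, AGS minus HGC-27, on the horizontal axis for the 38 tested interferon-stimulated genes, 1 per row, with bars of 1 standard error (SE); colours give higher in AGS, lower in AGS or not called, and open points mark genes without counts in HGC-27. The 29 genes higher in AGS lie right of 0 and the 5 lower ones (HERC6, IFI44L, IFITM2, SAMD9L and IFI35) left of it.

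In TPM, a level per length, the 40 genes together reached 1879 in the estradiol and 1916 in the control library of AGS, against 862 and 846 in those of HGC-27. Much of these sums came from IFITM1, IFITM2 and IFITM3, which share sequence with other genes, so the sums are uncertain too. In AGS 25 of the genes stood at 10 TPM or more in each library, against 11 in the estradiol and 12 in the control library of HGC-27. The order of the genes differed between the lines below the first place. IFITM3 led both lines, with a mean of 596 TPM in AGS and 372 TPM in HGC-27. IFITM1, ISG15 and IFI6 followed in AGS, with mean levels of 272, 248 and 172 TPM, while IFITM2, IFITM1 and BST2 followed in HGC-27, with 165, 62.7 and 39.2 TPM. IFIH1 ranked 15th by TPM in AGS and 37th in HGC-27, and IFI44L 34th in AGS and 8th in HGC-27.

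**Figure D2:**
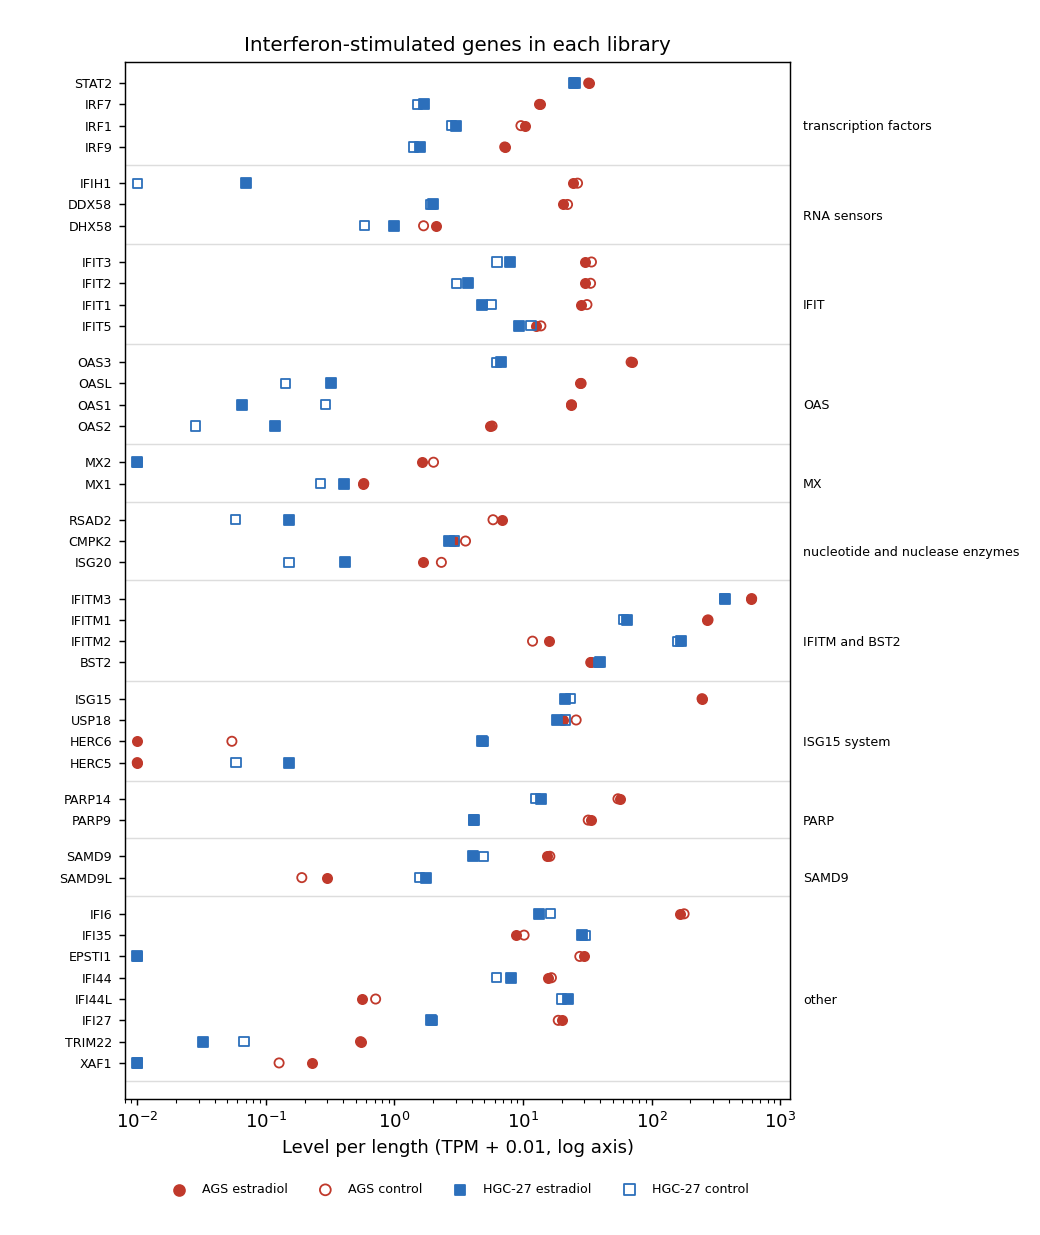
Level per length (TPM plus 0.01, log axis) of the 40 interferon-stimulated genes in each library, grouped by role; circles are AGS, squares HGC-27, filled estradiol and open control. Estradiol and control points of a line nearly coincide for most genes, while the lines stand apart, for example ISG15 at 248 TPM in AGS and 22.4 TPM in HGC-27 on average.

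The 4 transcription factors were higher in AGS. STAT2, which carries the signal from the type I receptor to DNA, had 1627 counts in the estradiol and 1537 in the control library of AGS, against 1149 and 1298 in those of HGC-27. Its log2 difference of 0.38 (SE 0.07, adjusted p = 5.71e-07) was among the smallest of the called ones. IRF9, the DNA-binding subunit of the complex, had 226 and 212 counts in AGS, compared with 44 and 46 counts in HGC-27 (log2 2.28, SE 0.24, adjusted p = 3.31e-19). The gene AL136295.5 overlaps it and shares its sequence, so the count of IRF9 is uncertain. IRF1, a factor that binds the same GAAA repeats, had 665 and 583 counts in AGS, compared with 174 and 187 counts in HGC-27 (log2 1.79, SE 0.13, adjusted p = 1.15e-34). Other annotated genes, mainly C5orf56, overlap 22% of the exon bases of IRF1 on the opposite strand. The strandedness of the libraries is not given, so the count of IRF1 is uncertain too. IRF7, which drives the interferon-alpha genes, had 292 and 274 counts in AGS, compared with 33 and 34 counts in HGC-27 (log2 3.08, SE 0.23, adjusted p = 7.99e-33). In all 4 genes both AGS libraries lay above both HGC-27 libraries in CPM, as they did in 41% of all tested genes; in 88.7% of these the lines did not overlap in either direction, so a lack of overlap sets no gene apart here.

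The cytosolic RNA sensors differed more. IFIH1 (MDA5, which binds long double-stranded RNA; ENSG00000115267) had 913 and 933 counts in the estradiol and control libraries of AGS, against 2 and 0 in those of HGC-27. The ratio of its summed counts had a counting interval of 257-fold to 7669-fold higher in AGS (edgeR adjusted p = 1.22e-119). DDX58 (RIG-I, which binds RNA ends carrying a triphosphate) had 739 and 750 counts in AGS, compared with 64 and 72 counts in HGC-27, 11.01-fold higher in AGS (log2 3.46, SE 0.15, adjusted p = 2.45e-74). DHX58 (LGP2, which modulates the other sensors) was low in both lines, with 67 and 50 counts in AGS, compared with 28 and 19 counts in HGC-27. Its log2 difference of 1.31 (SE 0.40, adjusted p = 0.00191) passed the threshold, and without the control library of HGC-27 it was 0.95 with adjusted p = 0.0584. AGS and HGC-27 values did not overlap in the 3 sensor genes, as in most tested genes, and IFIH1 was at or under the floor in both HGC-27 libraries.

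All 4 OAS genes were higher in AGS. OAS1, OAS2 and OAS3 make short oligoadenylates that activate RNase L, and OASL is a relative without that activity. OAS1 had 970 and 915 counts in the estradiol and control libraries of AGS, against 2 and 12 in those of HGC-27 (log2 7.06, SE 0.21, adjusted p = 6.03e-116). OASL had 802 and 773 counts in AGS, compared with 8 and 4 counts in HGC-27 (log2 7.01, SE 0.23, adjusted p = 9.81e-106). OAS2 had 287 and 279 counts in AGS, compared with 5 and 1 counts in HGC-27 (log2 6.51, SE 0.36, adjusted p = 5.91e-52). These 3 genes had few counts in HGC-27 and passed the filter on low counts through AGS, and the counting interval of the OAS1 ratio ran from 80.5-fold to 248-fold. OAS3, the longest member of the family, was the highest per length in both lines, with mean levels of 69.5 TPM in AGS and 6.51 TPM in HGC-27. It had 4754 and 4439 counts in AGS, compared with 413 and 445 counts in HGC-27, 10.8-fold higher in AGS (log2 3.43, SE 0.07, adjusted p = 3.69e-165).

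All 4 IFIT genes, whose proteins bind viral RNA or block its translation, were higher in AGS. IFIT2 had 1026 and 1067 counts in the estradiol and control libraries of AGS, against 112 and 107 in those of HGC-27 (log2 3.26, SE 0.12, adjusted p = 3.15e-87). IFIT1, which binds capped RNA that lacks a methyl mark of host RNA, had 1076 and 1125 counts in AGS, compared with 164 and 227 counts in HGC-27 (log2 2.51, SE 0.11, adjusted p = 7.37e-73). IFIT3, its partner, had 662 and 698 counts in AGS, compared with 154 and 143 counts in HGC-27 (log2 2.20, SE 0.13, adjusted p = 2.96e-46). IFIT5 stood apart with a small difference, at 421 and 429 counts in AGS, compared with 277 and 400 counts in HGC-27 (log2 0.35, SE 0.13, adjusted p = 0.0078). The call of IFIT5 was lost without the HGC-27 estradiol library (log2 0.19, adjusted p = 0.253) and in DESeq2 (log2 0.37, adjusted p = 0.101).

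The proteins that act on viral membranes were split. IFITM1 and IFITM3, which hinder the fusion of viruses with cell membranes, were higher in AGS, while their neighbour IFITM2 was lower. IFITM3 had 6580 and 6280 counts in the estradiol and control libraries of AGS, against 3713 and 4312 in those of HGC-27 (log2 0.69, SE 0.05, adjusted p = 4.67e-31). IFITM1 had 2404 and 2304 counts in AGS, compared with 517 and 565 counts in HGC-27 (log2 2.13, SE 0.08, adjusted p = 2.01e-93). IFITM2 had 201 and 142 counts in AGS, compared with 1926 and 2139 counts in HGC-27, 11.9-fold higher in HGC-27 (log2 -3.57, SE 0.10, adjusted p = 1.09e-128). The exons of these genes share sequence: 45.9% of the 31-base words of IFITM1, 43.3% of those of IFITM3 and 24.6% of those of IFITM2 occur in other genes, so reads could have been assigned to the wrong member or dropped. BST2 (tetherin, which holds new virus particles on the cell surface) had 309 and 292 counts in AGS, compared with 329 and 373 counts in HGC-27, and the difference passed no threshold (log2 -0.22, SE 0.14, adjusted p = 0.135).

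ISG15, a ubiquitin-like protein that is coupled to other proteins (ENSG00000187608), was 11.1-fold higher in AGS. It had 1932 and 1805 counts in the estradiol and control libraries of AGS, against 148 and 191 in those of HGC-27 (log2 3.47, SE 0.10, adjusted p = 1.37e-122). The enzymes that attach and remove it differed from it in pattern. USP18, which removes ISG15 and restrains the type I receptor, had 360 and 428 counts in AGS, compared with 289 and 391 counts in HGC-27, with overlapping values (log2 0.23, SE 0.13, adjusted p = 0.0912). USP18 shares 30.8% of its 31-base words with other genes, mainly USP41. Leaving out the AGS estradiol library brought USP18 past the threshold (log2 0.40, adjusted p = 0.00701), as did leaving out the HGC-27 control library (log2 0.34, adjusted p = 0.0492), while without the AGS control library the difference was 0.07 (adjusted p = 0.673). HERC6, the ISG15 ligase of the mouse, had 0 and 2 counts in AGS, compared with 206 and 246 counts in HGC-27 (edgeR adjusted p = 1.14e-44). It was the lowest gene in AGS relative to HGC-27, and the ratio of its summed counts, AGS over HGC-27, had an interval of 0.000537 to 0.0162. HERC5, the main ISG15 ligase of human cells, lies beside it and was close to absent, with 0 counts in both AGS libraries and 5 and 2 counts in HGC-27, too few for a test.

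The MX genes encode GTPases that trap viral capsids. MX2 had 176 and 203 counts in the estradiol and control libraries of AGS and 0 in both libraries of HGC-27. Its mean CPM in AGS was 59.1 times a floor of 3 counts per library in HGC-27. The line difference had an edgeR adjusted p = 2.21e-41. MX1 was low in both lines, with 40 and 38 counts in AGS, compared with 25 and 19 counts in HGC-27, and passed no threshold (log2 0.83, SE 0.46, adjusted p = 0.0901). Per length, MX1 stood at a mean of 0.565 TPM in AGS and 0.324 TPM in HGC-27, and MX2 at 1.82 TPM in AGS.

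Among the enzymes of nucleotides and RNA decay, RSAD2 (viperin, which makes a chain-terminating nucleotide) had 271 and 219 counts in the estradiol and control libraries of AGS, against 5 and 2 in those of HGC-27 (log2 6.08, SE 0.37, adjusted p = 4.4e-45). CMPK2, a mitochondrial nucleotide kinase encoded next to RSAD2, had 103 and 119 counts in AGS, compared with 84 and 108 counts in HGC-27, with overlapping values (log2 0.22, SE 0.25, adjusted p = 0.406). ISG20, an exonuclease of RNA, had 101 and 132 counts in AGS, compared with 22 and 9 counts in HGC-27 (log2 2.90, SE 0.36, adjusted p = 3.73e-14).

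PARP9 and PARP14, ADP-ribosyltransferase family members, were higher in AGS. PARP14 had 4881 and 4462 counts in the estradiol and control libraries of AGS, against 1063 and 1129 in those of HGC-27 (log2 2.10, SE 0.06, adjusted p = 5.62e-116). PARP9 had 2474 and 2231 counts in AGS, compared with 271 and 317 counts in HGC-27 (log2 3.01, SE 0.09, adjusted p = 2.9e-123). SAMD9 and SAMD9L, antiviral relatives that block translation, went opposite ways. SAMD9 had 869 and 860 counts in AGS, compared with 206 and 292 counts in HGC-27 (log2 1.82, SE 0.11, adjusted p = 1.23e-44), and SAMD9L 17 and 10 counts in AGS, compared with 92 and 96 counts in HGC-27 (log2 -2.80, SE 0.40, adjusted p = 2.08e-11).

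Of the remaining 8 genes, 5 of the 7 tested were higher in AGS and 2 lower. EPSTI1, which was first described in breast cancer cells grown with stromal cells (ENSG00000133106), had 1211 and 1057 counts in the estradiol and control libraries of AGS and 0 in both libraries of HGC-27. Its mean CPM in AGS was 352 times a floor of 3 counts per library in HGC-27, and the line difference had an edgeR adjusted p = 2.31e-134. IFI6, a membrane protein that protects against flaviviruses, had 1176 and 1202 counts in AGS, compared with 85 and 123 counts in HGC-27 (log2 3.53, SE 0.12, adjusted p = 4.21e-99). IFI27 had 690 and 605 counts in AGS, compared with 59 and 71 counts in HGC-27, 9.98-fold higher in AGS. TRIM22, an antiviral ubiquitin ligase, was low, with 27 and 25 counts in AGS, compared with 1 and 3 counts in HGC-27, and the counting interval of its ratio ran from 4.81-fold to 49.8-fold. XAF1, which binds the apoptosis inhibitor XIAP, had 12 and 6 counts in AGS and 0 in both HGC-27 libraries, too few for a test.

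IFI44L and IFI44 encode related proteins and lie next to each other on chromosome 1, but they differed in opposite directions. IFI44L (ENSG00000137959) had 46 and 56 counts in the estradiol and control libraries of AGS, against 1704 and 1751 in those of HGC-27, 33.7-fold higher in HGC-27 (log2 -5.08, SE 0.13, adjusted p = 1.49e-141). IFI44 had 262 and 263 counts in AGS, compared with 120 and 109 counts in HGC-27 (log2 1.20, SE 0.19, adjusted p = 6.11e-10). IFI35, a protein that pairs with NMI, had 143 and 156 counts in AGS, compared with 419 and 517 counts in HGC-27, 3.10-fold higher in HGC-27 (log2 -1.63, SE 0.15, adjusted p = 1.32e-24). The AGS values of these 3 genes did not overlap those of HGC-27, with IFI44 higher in AGS and IFI44L and IFI35 lower; AGS lay below HGC-27 without overlap in 47.7% of all tested genes.

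Neighbouring genes did not always share a direction. In the coordinates of the deposited table, 23 of the 40 genes lay within 500 kb of another of them, in 9 clusters, and 3 clusters held calls in both directions. IFI44L and IFI44 lie within 44.2 kb, SAMD9 and SAMD9L within 48.9 kb, and IFITM2 starts 5.88 kb before IFITM1. The IFIT cluster on chromosome 10 (4 genes in 137 kb) and the OAS cluster on chromosome 12 (3 genes in 105 kb) held only genes that were higher in AGS.

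**Figure D3:**
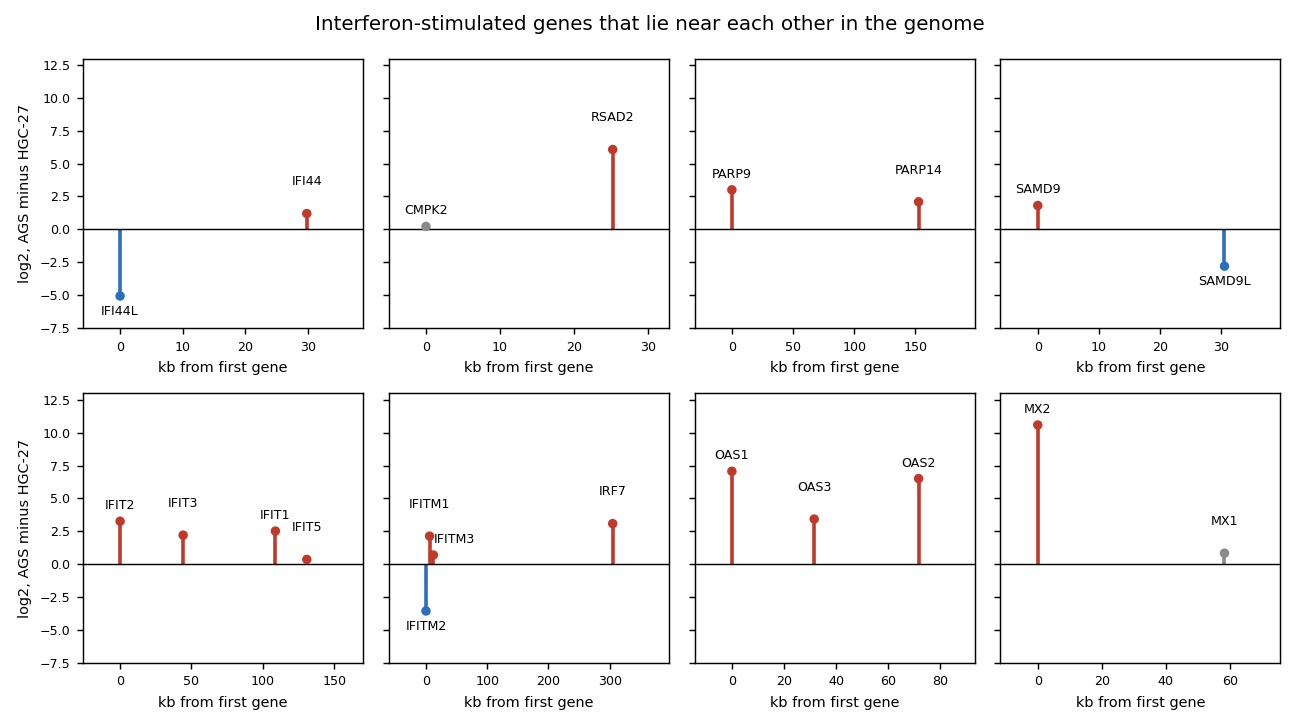
Fitted log2 difference, AGS minus HGC-27, against the distance in kb from the first gene for 8 clusters of interferon-stimulated genes within 500 kb of each other (the HERC6 and HERC5 cluster is not drawn because HERC5 was not tested); red is higher in AGS, blue lower and grey not called. The clusters of IFI44L and IFI44, SAMD9 and SAMD9L, and the IFITM genes with IRF7 hold points on both sides of 0.

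The rest of the interferon pathway was counted from lists of ligands, receptors, sensors, other induced genes and brakes. Of 21 interferon genes, 2 had enough counts for a test, and both were higher in AGS. Both passed the filter on low counts through AGS, the line in which they were high, so their shared direction is not a separate result. IFNE, the epithelial interferon epsilon, had 187 and 220 counts in the estradiol and control libraries of AGS, against 2 and 1 in those of HGC-27, a ratio with a counting interval of 46.3-fold to 664-fold (edgeR adjusted p = 8.76e-41). IFNL1, a type III interferon, had 17 and 14 counts in AGS and 0 in both HGC-27 libraries. Its mean CPM in AGS was 4.81 times a floor of 3 counts per library in HGC-27. IFNB1 had 5 and 4 counts in AGS and 0 in both HGC-27 libraries, and IFNG had 0 in all 4.

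Of the 11 receptor and JAK-STAT genes, 6 were higher in AGS and 3 lower, with a median log2 difference of 0.93; over all tested genes 35.7% were higher, 41.5% lower and the median was -0.10, which also stands beside the lists that follow. STAT3, which carries the signals of other cytokines, had a log2 difference of 1.62 and IFNAR1, a chain of the type I receptor, one of 1.08. IFNLR1, the specific chain of the type III receptor, was lower in AGS, with a log2 difference of -1.49. Lower too were the kinases TYK2, at 1926 and 1938 counts in AGS, compared with 3378 and 4072 counts in HGC-27 (log2 -0.94, SE 0.06, adjusted p = 2.08e-42), and JAK2 (log2 -0.89). IFNAR2 shares 83.3% of its exon bases with other annotated genes on either strand and passed no threshold, so its count is uncertain.

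Of the sensors and adaptors, 12 of 13 tested genes were higher in AGS and 1 was lower, at a median log2 difference of 1.21. CGAS, the sensor of cytosolic DNA, had 1419 and 1222 counts in the estradiol and control libraries of AGS, against 3 and 4 in those of HGC-27 (log2 8.51, SE 0.21, adjusted p = 1.11e-141). TMEM173 (STING), which relays its signal, was the gene lower in AGS, with 39 and 68 counts in AGS, compared with 467 and 603 counts in HGC-27 (log2 -3.31, SE 0.17, adjusted p = 7.59e-57). IFI16, another DNA sensor, had 94 and 75 counts in AGS and 1 count in each HGC-27 library, a ratio with a counting interval of 23.2-fold to 707-fold. CGAS and IFI16 also passed the filter on low counts through AGS. MYD88, an adaptor of Toll-like receptors, had a log2 difference of 2.56.

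Of 38 tested genes in a list of other interferon-induced genes, 23 were higher in AGS and 13 lower, with a median log2 difference of 0.90; the share of lower genes, 34.2%, is near the 41.5% over all tested genes. Its named genes were LAMP3 (5.78) and APOL1 (4.89), higher in AGS, and GMPR (-4.50) and TNFSF10 (-3.51), lower in AGS, on the log2 scale. Of 19 tested interferon-gamma genes, 12 were higher in AGS and 5 lower, with a median of 1.07. The chemokines CXCL10 and CXCL11 had 64 and 73, and 128 and 120 counts in AGS, and 0 in both HGC-27 libraries. Among the guanylate-binding proteins, GBP3 was higher in AGS (log2 7.54) and GBP2 lower (log2 -4.78). The brakes, which include ISG15 and USP18, had 8 of 15 tested genes higher in AGS and 3 lower, with a median of 0.26 and with the phosphatase PTPN6 at 4.80. Each of these lists held genes in both directions, except the 2 tested ligands, which passed the filter through AGS. Other tested genes near 0 counts in a line, such as CXCL10 and CXCL11, likewise passed it through the other line.

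**Figure D4:**
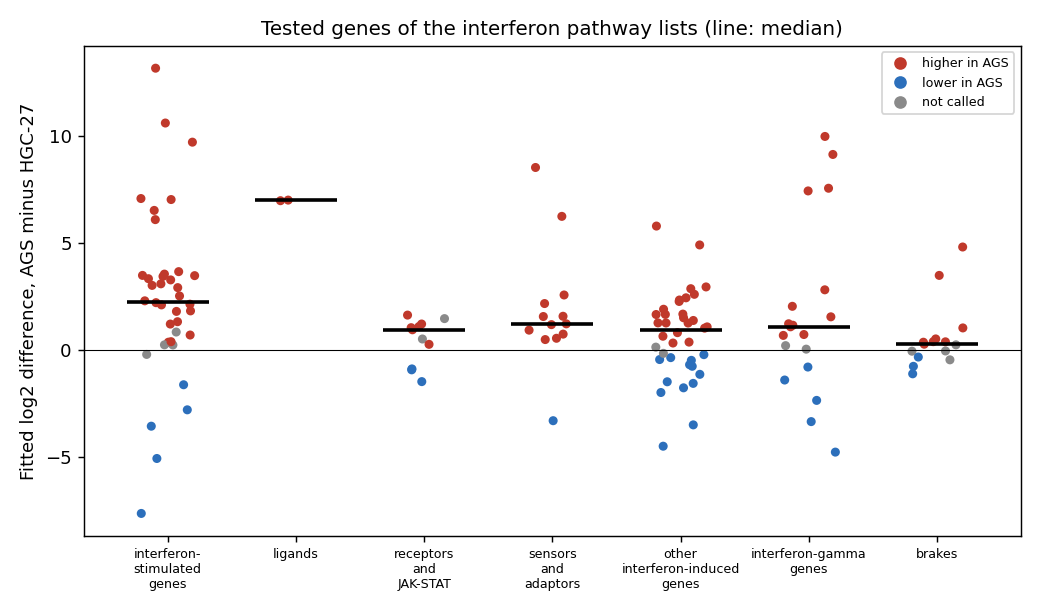
Fitted log2 difference, AGS minus HGC-27, for the tested genes of the 40 interferon-stimulated genes and of 6 lists around them; each point is a gene and each line the median of its list. The medians run from 2.24 for the interferon-stimulated genes to 0.26 for the brakes, apart from the ligands, of which 2 genes were tested.

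None of the 38 tested genes passed the threshold with estradiol over both lines (edgeR quasi-likelihood F-test, line as a block), where 0.153% of all tested genes were called, 0.115% higher and 0.0383% lower. DESeq2 and limma-voom also called 0, and held 0 at an unadjusted p under 0.05. At an unadjusted p under 0.05 edgeR held 1 gene, USP18, against 3.24% of all tested genes. USP18 had 13.02 CPM in the estradiol and 16.5 CPM in the control library of AGS, and 11.6 CPM in the estradiol and 13.5 CPM in the control library of HGC-27. Its values were lower with estradiol in each line, and the change failed the adjustment (log2 -0.28, SE 0.13, unadjusted p = 0.0279, adjusted p = 1). Fitted changes ran from -0.29 for MX2 to 0.51 for DHX58 on the log2 scale, with 22 genes above and 16 below 0, and the median was 0.01, against 0.00 over all tested genes. None of the 6 pathway lists held a gene called with estradiol.

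Within a line there was 1 library per treatment, so the ratios have no test, and their 95% intervals cover counting error only. In AGS, 32 of the 40 genes reached a mean count of 100. Of these, 1 was higher with estradiol by at least 1.25-fold and 2 were lower, against 2.03% higher and 2.91% lower among all genes at that count. The higher one was IFITM2, at 7.27 CPM with estradiol and 5.46 CPM in control cells (log2 ratio 0.41, interval 0.10 to 0.73). The lower ones were ISG20, at 3.65 CPM with estradiol and 5.08 CPM in control cells (log2 ratio -0.47, interval -0.86 to -0.09), and USP18 (log2 ratio -0.34, interval -0.54 to -0.13). The intervals of IFIT1, IFIT2, IFIT3 and IFI6 also lay below 0, with log2 ratios of -0.15, -0.15, -0.17 and -0.12. In all, 1 interval lay above 0 and 6 below, against 14.2% and 15.5% of all genes at that count. RSAD2 (0.22), EPSTI1 (0.11) and IRF1 (0.10) had the next highest log2 ratios, and CMPK2 (-0.30) and MX2 (-0.29) the next lowest, all with intervals that included 0.

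In HGC-27, 21 of the genes reached a mean count of 100, of which 1 was higher with estradiol by at least 1.25-fold and 0 were lower, against 3.21% higher and 1.05% lower among all genes at that count. The higher one was IFI44, at 4.80 CPM with estradiol and 3.77 CPM in control cells (log2 ratio 0.35, interval -0.04 to 0.74). IFI44L had 68.2 CPM with estradiol and 60.5 CPM in control cells (log2 ratio 0.17, interval 0.07 to 0.27), and PARP14 a log2 ratio of 0.12 with an interval of 0.0018 to 0.25; these were the intervals above 0, against 10.8% of all genes at that count. The 3 intervals below 0, against 14.6%, were those of IFIT5 (log2 ratio -0.32, interval -0.55 to -0.09), SAMD9 (-0.29, interval -0.56 to -0.03) and USP18 (-0.22, interval -0.45 to -0.0022). IFIT3 (0.32), IFIT2 (0.28), IFI6 (-0.32) and IFIT1 (-0.26) had log2 ratios of similar size with intervals that included 0. IFIT2 and IFIT3 thus had ratios above 0 in HGC-27 and below 0 in AGS, and the difference between the lines was not tested.

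**Figure D5:**
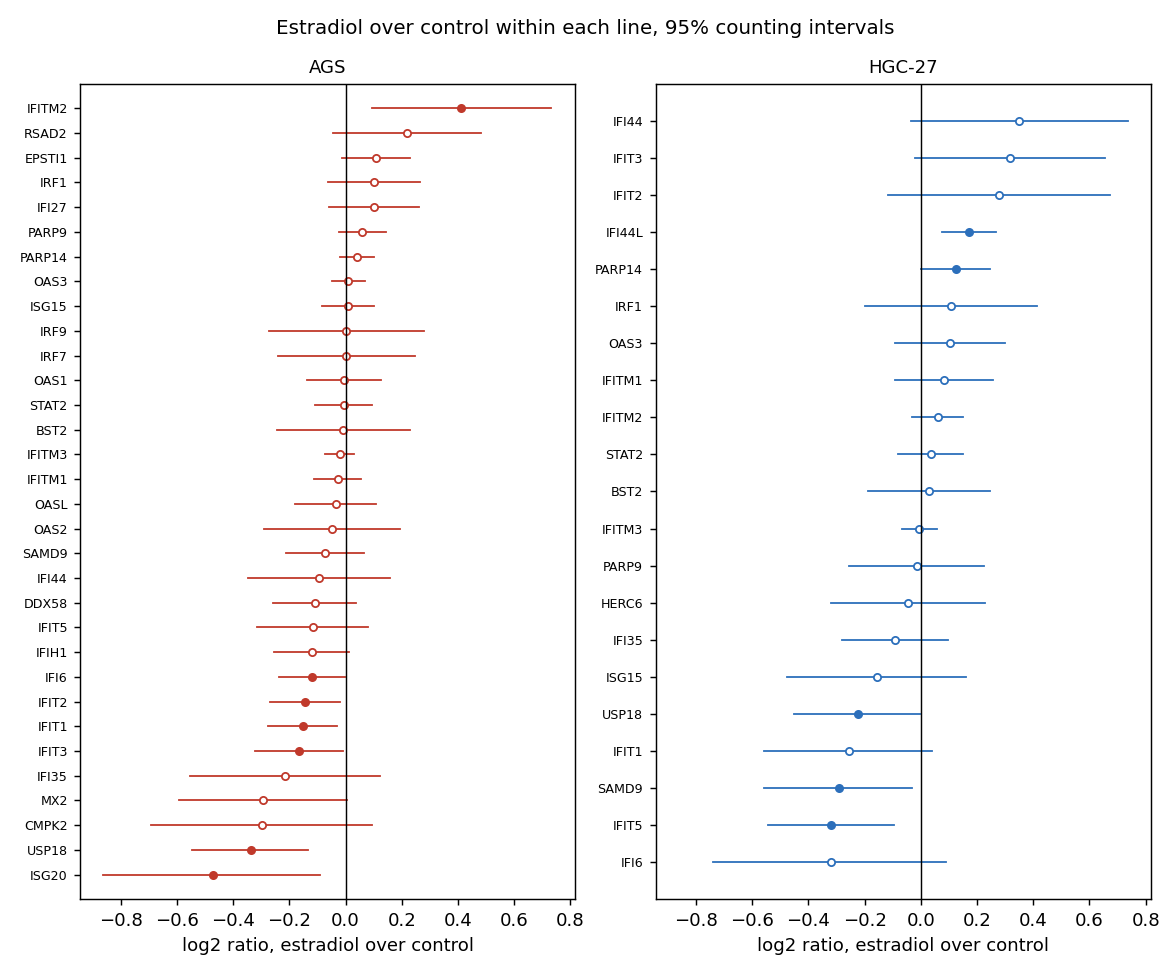
Log2 ratio of estradiol over control within AGS (left) and HGC-27 (right) for the interferon-stimulated genes whose mean count reached 100 there, with 95% counting intervals. Ratios run from -0.47 to 0.41 in AGS and from -0.32 to 0.35 in HGC-27, and most intervals include 0.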

How the data were processed

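The authors' deposited table holds raw counts per gene as whole numbers for the 4 libraries. Per the labels' protocols, total RNA was extracted with TRIzol; per the submitters' processing notes, reads were aligned with HISAT2 and counted with featureCounts. Strandedness, versions and the treatment of reads with several matches are not given in the sources used here. Genes with overlapping or near-identical partners therefore have uncertain counts. The notes name hg18, but start and end of 39 of the 40 genes equal GENCODE release 29 on GRCh38.

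The genes and lists were chosen with earlier results of these data known. The number in a library's name stands for its line, which pairs the libraries. Counts were fitted in R 4.3.3 with edgeR 4.0.16 (TMM, filterByExpr, quasi-likelihood F-test, model of line plus treatment, Benjamini-Hochberg over 18278 genes). The model left 1 residual degree of freedom, with 397 prior degrees of freedom. DESeq2 1.42.0 and limma 3.58.1 (voom) were alternatives. CPM used TMM-scaled sizes, and TPM the gene length of the file. Within-line log2 ratios used a prior of 0.5 counts and exact conditional binomial intervals of 95%; intervals and floors cover counting error only. The steps were tested on simulated data. Genes with values in every library were the transcription factors and RNA sensors, the 8 highest by TPM, the 10 largest called line differences in each direction, and the 4 highest and lowest estradiol ratios per line; values of the others were added after they were seen. Up to 4 genes were named per pathway list, and other pathway genes were named after their values were seen. Some genes that the rule picked, and sums that rest on them, are not reported here.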

Additional observations from a re-analysis of the deposited data

Results flagged for a closer look

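ISG20, an exonuclease of RNA, had estradiol ratios of opposite sign in the lines. Its log2 ratio of estradiol over control was -0.47 in AGS (101 counts with estradiol and 132 in control cells) and 1.45 in HGC-27 (22 counts with estradiol and 9 in control cells). Both 95% counting intervals left out 0, from -0.86 to -0.09 in AGS and from 0.32 to 2.80 in HGC-27. ISG20 was picked from the 40 genes by the rule that both intervals leave out 0, in opposite directions. The intervals are therefore the reason for the flag and not a test of that difference. How many of all genes differ in this way is not reported here. The mean count of ISG20 in HGC-27 was 15.5, under the mean count of 100 used for the within-line ratios above. With 1 library per treatment in each line, the difference between the lines was not tested, and the HGC-27 ratio rests on 31 counts in all.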

How the results depend on the processing

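Between the lines, the number of interferon-stimulated genes called higher in AGS stayed within 1.5 times of 29 and the number called lower stayed within 1.5 times of 5 under all alternatives run, which were other size factors, library size alone, no or a stricter count filter, DESeq2, limma-voom, a robust spread, no treatment term and each library left out. Leaving out 1 library gave 29 to 30 higher and 5 lower, and medians of 2.20 to 2.35. Over the tested genes and these alternatives, 447 values kept direction and call, 3 lost the call, 2 gained it, 1 moved by more than the spread and 0 reversed. Without the 5 genes that share over 10% of their 31-base words, an alternative chosen after seeing the data, the median was 2.90 over 33 genes in place of 2.24, since 5 genes were left out. For estradiol, the number of all genes called was 28 in the main test, 13 with library size alone (chosen after seeing the data), 17 with a robust spread, 1 in DESeq2, 0 in limma-voom and 0 without the line as a block; the cause was not tested. None of the 38 genes was called with estradiol in any of these fits, and with no replicate block their median log2 change was -0.01. Without AGS the median was 0.07 and without HGC-27 it was -0.02, and a p-value could not be had there because 1 library per treatment remained. At a fold of 1.1, chosen after seeing the data, 2 genes were higher and 8 lower with estradiol in AGS, and 4 higher and 6 lower in HGC-27. The share of all genes past 1.1-fold was not counted, so no shift of these genes can be read from these numbers. Genes under about 10 counts in a line, such as TRIM22, OAS2 and RSAD2 in HGC-27, have line ratios limited by depth.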
